A study of Mus musculus with 2 samples.

Results

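The genes described here are 10 components of the Notch pathway in the skin of newborn mice with and without Sdr9c7: the receptors Notch1, Notch2 and Notch3, the ligands Jag1, Jag2 and Dll1, and the target genes Hes1, Hes5, Hey1 and Heyl. They were chosen by gene name among the non-control probes of the array, at a time when the differences between these arrays were already known, so each difference below is a description and carries no test. All 10 of 10 were measured, through 12 probes and 21 spots, out of 22714 measured gene names. The study set dorsal skin of Sdr9c7-/- (knockout) mice against that of wild type mice, both on the C57BL/6J background and both at postnatal day 0. Each genotype had 1 array, hybridised with pooled RNA of 5 animals, so the animals of a group were not measured apart and no difference has a replicate check. Sdr9c7 encodes a short-chain dehydrogenase of the upper epidermis that acts on the acylceramides of the skin barrier. The labels name no promoter or Cre line, and the knockout is given without the part of the gene that was removed.

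Notch signalling passes between touching cells. A Jagged or Delta ligand on the surface of a cell pulls on the receptor of its neighbour, the receptor is cut first by an ADAM protease and then by gamma-secretase, and the freed intracellular domain joins the DNA-binding protein RBPJ and a Mastermind coactivator to switch on genes of the Hes and Hey families. In the epidermis the pathway is best known for moving basal keratinocytes into the spinous programme, and skin that lacks it has a poor barrier. Notch receptors and ligands also act in hair follicles, in the endothelium and in the smooth muscle and pericytes of vessels.

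Signals are intensities divided by the 75th percentile of their own array, so that 1 equals that percentile, and a difference is the log2 signal of the knockout minus that of the wild type. Signals of different probes are not set against each other, because each probe binds its target with its own strength. Probes well above background made up 75.8% of the spots on the wild type array and 77.6% on the knockout array, and 0 spots were saturated. Sdr9c7 itself read 0.324 in wild type and 0.0479 in knockout skin (6.78-fold lower, a log2 difference of −2.76, or −2.06 after normexp background correction). The knockout minus wild type difference varied between replicate spots of the same probe with an SD of 0.06 on the log2 scale (median of 320 probes with at least 8 spots). Between different probes of the same gene this difference varied with a pooled SD of 0.23 (5144 genes, called the between-probe SD). These spreads cover spot and probe error, and not the difference between animals. Rows 93 to 150 and 431 to 477 of the 532 rows of the array held dim spots that scattered at least 1.5 times more than usual between the arrays, and 6 of the 21 spots lay in these bands. The single Sdr9c7 spot lay there too, so that gene has no value without them. The tissue is labelled as skin, whereas the design text speaks of epidermis. All 6 fibroblast markers and all 9 skeletal muscle markers were well above background on both arrays, so the RNA held dermis and muscle as well.

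Of the 10 genes, Hes5 was the sole gene past either limit: it was 2.70-fold higher in the knockout. The other 9 lay within 1.5-fold, from Jag1 at −0.17 to Notch1 at 0.38. The median of the 10 was 0.06, with 8 above 0 and 2 below. Over all measured genes the median was −0.04, with 43.1% above 0 (9786 above and 12928 below). At least 2-fold higher were 1 of 10 genes against 0.528% of all measured genes, and at least 2-fold lower were 0 of 10 against 1.35%. At the 1.5-fold limit the counts were again 1 of 10 higher and 0 of 10 lower, against 2.36% (536 genes) and 6.04% (1373 genes). After quantile normalization the same limit was passed by 687 genes higher and 1114 lower. Because the genes were chosen with these values known, nothing is read from the counts.

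**Figure D1:**
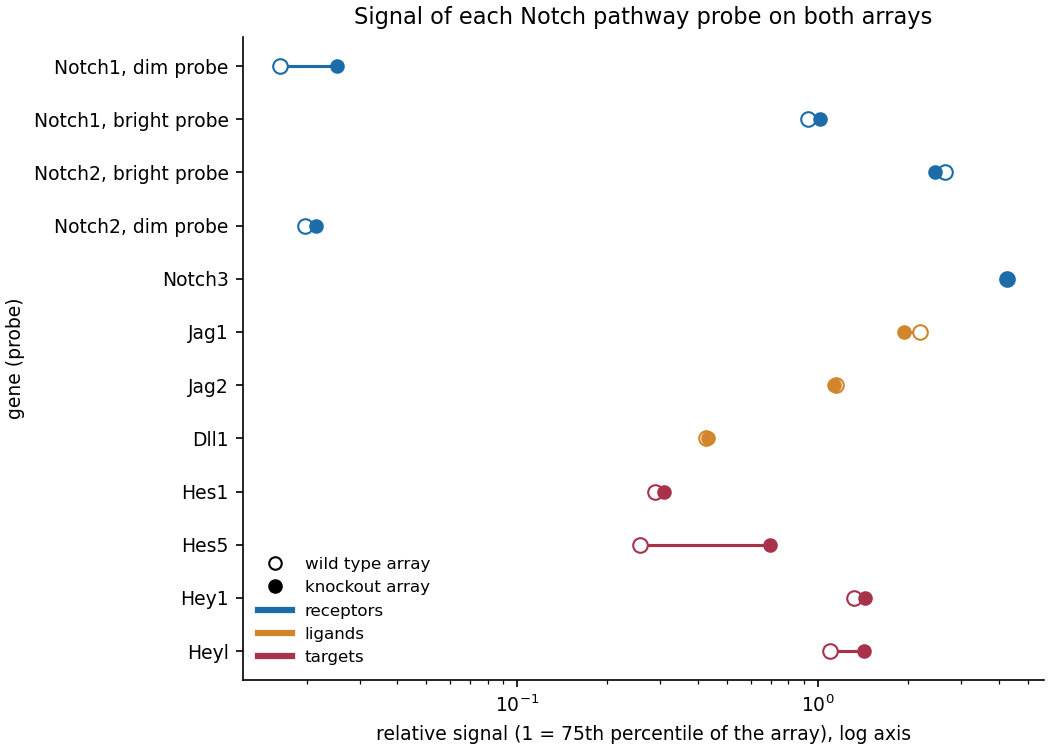
Relative signal of each of the 12 probes on the wild type array (open circle) and the knockout array (filled circle), on a log axis where 1 is the 75th percentile of the array. Hes5 shows the widest gap of the 12 probes, from 0.257 to 0.693, and the dim Notch1 probe the next widest, from 0.0162 to 0.0252.

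Among the receptors, Notch3 and Notch2 were level. Notch3, the receptor of vascular smooth muscle and pericytes that is also made in suprabasal keratinocytes, read 4.26 in wild type and 4.28 in knockout skin, a difference of 0.004. Notch2 had 2 probes, which read 2.66 and 2.45 (−0.11) for the bright probe and 0.0198 and 0.0215 (0.12) for the dim probe, with a mean difference of 0.002. The probes thus pointed in opposite directions, each by less than the between-probe SD. The dim signal was only 3.52 times the lowest signal taken as well above background in the wild type, and 4.79 times in the knockout. After normexp background correction the bright probe gave −0.10 and the dim probe −0.11. The opposite directions and the mean near 0 therefore rest on a spot near background.

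Notch1, the receptor whose loss in keratinocytes disturbs spinous differentiation, had a mean difference of 0.38 over 2 probes that did not give the same size. The bright probe read 0.930 in wild type and 1.02 in knockout skin, a difference of 0.13. The dim probe read 0.0162 and 0.0252, a difference of 0.63. In the wild type the dim signal was only 2.88 times the lowest signal taken as well above background, and in the knockout 5.61 times. After normexp background correction, which adds an offset and so compresses dim signals, the dim probe gave 0.12 and the bright probe 0.11. With the brightest probe alone the difference of the gene was 0.13. The size of the Notch1 value therefore rests on a spot near background. Both probes lie on the minus strand of chromosome 2 in mm9, at chr2:26319440-26319499 (starting at base 5898 of the transcript named in the file, with a GC content of 55.0%) and chr2:26314630-26314689 (starting at base 8221, 40.0%). No annotation of that build was used, so no probe here was placed in an exon, an intron or a UTR. The first 30 bases of each 60-base probe, as the scanner output lists them, are shown because the 2 probes gave differences of unlike size.
Notch1 bright probe: tcctgcagtggagggggccttgagacaggc
Notch1 dim probe: ttgcttctttccaaaatcgaaaagaaagaa

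The ligands were level as well. Jag1, a ligand of hair follicles and suprabasal keratinocytes, read 2.18 in wild type and 1.94 in knockout skin (−0.17), the lowest difference of the 10 genes. Jag2, a ligand of the basal layer, read 1.15 and 1.13 (−0.02). Both values are smaller than the between-probe SD.

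Dll1, a Delta ligand known from basal keratinocytes and from developing muscle, is the best measured of the 10 genes, because its probe was printed at 10 positions. On the wild type array the 10 spots read from 0.382 to 0.451, with a median of 0.432. On the knockout array they read from 0.392 to 0.451, with a median of 0.441. The ranges overlapped almost entirely, although 8 of the 10 positions were slightly higher in the knockout. The mean difference was 0.02 ± 0.05 (SD over 10 spots of the same RNA pools, which are not replicates of the genotypes), and single positions ran from −0.11 to 0.08. The 3 spots in the bands gave 0.03 ± 0.02 and the 7 outside gave 0.02 ± 0.06. At this signal, spots in the bands scattered no more than the others for this probe.

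**Figure D2:**
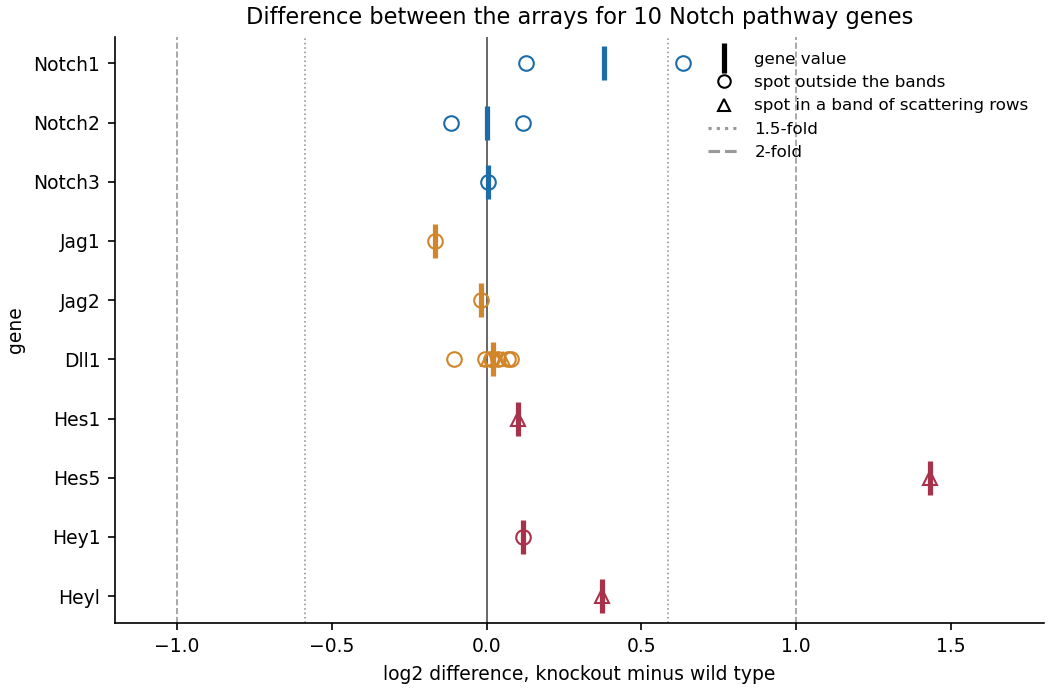
Log2 difference (knockout minus wild type) of the 10 genes: vertical bars are gene values, open symbols are single spots, and triangles are spots in the bands of scattering rows. Hes5 at 1.43 lies beyond the dashed 2-fold line, and the 10 Dll1 spots lie between −0.11 and 0.08.

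The targets were all above 0, with a median of 0.25. Hes1, a repressor of the spinous layer that holds keratinocytes back from further differentiation, read 0.287 in wild type and 0.309 in knockout skin (0.10). Hey1, a repressor of endothelium and other cells, read 1.32 and 1.43 (0.12). Both values are smaller than the between-probe SD. Heyl, a target of NOTCH3 in vascular smooth muscle, read 1.10 and 1.42, a difference of 0.37 (1.30-fold higher). That is above the pooled SD of 0.23 and below the 1.5-fold limit, and 6.45% of all measured genes were at least as high.

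Hes5, a basic helix-loop-helix repressor best known from neural progenitors, read 0.257 in wild type and 0.693 in knockout skin, a difference of 1.43. It ranked 53rd from the highest of 22714 measured genes. Before any scaling its processed intensity was 449 on the wild type array and 1332 on the knockout array. The raw mean of the spot was 501 and 1381, over a local background of 36.0 on each array. The signal was thus 45.6 times the lowest well-above-background signal of the wild type array and 154 times that of the knockout array. The pixels of the spot had an SD of 0.203 of their mean on the wild type array and 0.183 on the knockout array. Over the spots of the other 9 genes these shares ran from 0.0612 to 0.212 and from 0.0528 to 0.231.

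The Hes5 value rests on 1 spot of 1 probe, in row 134, inside a band of scattering rows. Around it, 134 detected spots within 6 rows and 6 columns had a median difference of −0.05, and 1 of them was at least 2-fold higher. Of 639 spots in the bands with a mean log2 signal within 0.5 of that of Hes5, 5 were at least 2-fold higher (0.782%), and 1 was as high as Hes5. Outside the bands and a shifted block of spots near the edge of the array, 3 of 2568 spots at that level were at least 2-fold higher (0.117%), and 1 was as high. The SD of the difference at that level was 0.30 inside the bands and 0.31 outside. Of the 4 target spots, 3 lay in the bands, namely Hes1, Hes5 and Heyl, so these genes have no value when the bands are left out. Whether the position of the spot has a part in the Hes5 value was not tested.

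The Hes5 probe lies on the plus strand at chr4:154336347-154336406 (mm9) and starts at base 1139 of the transcript, with a GC content of 45.0%. No other probe of the array shared 20 bases in a row with it, nor with any of the other 11 probes. Its first 30 bases are printed because Hes5 was read through this 60-base probe alone.
Hes5 probe: acgatgatccttaaaggattcctttgtatg

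Promoter letters were at hand for the receptors, the ligands and Hes5, and among these the Hes5 promoter alone carries letters read by RBPJ. In the RefSeq promoter table (GRCm38.p6, 300 bases from 250 before to 50 after a gene's start), 7 of the 10 genes had an entry, with 8 promoters in all. The genes without an entry are Hes1, Hey1 and Heyl, which are all the other targets, so Hes5 was not set beside another target. The core letters of the RBPJ site, GTGGGAA, were searched on both strands. The Hes5 promoter held 2 matches, 83 bases before the start on the plus strand and 226 bases before it on the minus strand, and the other 7 promoters held 0. Of all 32851 promoters in the table, 6.38% held at least 1 match and 0.256% at least 2. The 250 bases before the start of Hes5, chr4:154960673-154960922 on the plus strand, are shown because Hes5 is the gene past 2-fold, with both matches in capitals (TTCCCAC is the site read from the other strand).
Hes5 promoter: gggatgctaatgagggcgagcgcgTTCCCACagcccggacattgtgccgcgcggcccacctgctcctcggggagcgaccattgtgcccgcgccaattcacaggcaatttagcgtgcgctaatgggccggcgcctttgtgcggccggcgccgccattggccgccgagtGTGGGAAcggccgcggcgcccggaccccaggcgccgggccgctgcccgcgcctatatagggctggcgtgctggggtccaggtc

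A match is a description of letters and not of binding. HES and HEY proteins bind letters such as CACGNG, which overlap with the E-box CANNTG where the N is a T. CACGNG was present in the promoters of Notch2, Notch3, Jag1, Jag2 and Dll1 and had 0 matches in those of Hes5 and Notch1, against 27.5% of all promoters. CANNTG was in the promoters of Jag1, Dll1 and Hes5 and had 0 matches in those of Notch1, Notch2, Notch3 and Jag2, against 72.3% of all promoters. These windows are short, and other regulatory sequence of the genes was not searched.

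**Figure D3:**
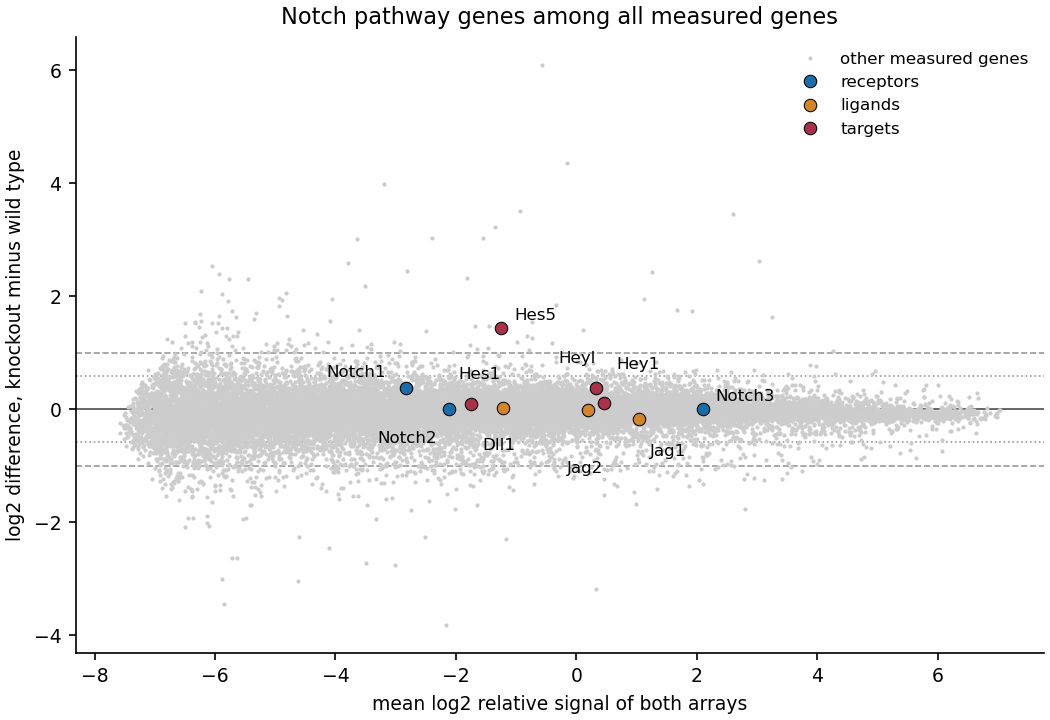
Log2 difference of each measured gene against its mean log2 signal over both arrays, with all other genes in grey and the 10 Notch pathway genes coloured by role. Hes5 at 1.43 stands at the upper edge of genes with a like signal, while the other 9 lie inside the dotted 1.5-fold lines.

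The rest of the pathway was measured in 8 lists with 77 genes, of which 74 were measured. Of these 74, 0 were at least 1.5-fold higher and 0 at least 1.5-fold lower (against 2.36% and 6.04% of all measured genes). When dim probes were filtered more strictly, 1.68% of all measured genes were at least 1.5-fold higher. The lists were not matched to all genes by signal, so nothing is read from these counts. The median of the 74 was −0.03, with 34 above 0 and 40 below, where 43.1% of all measured genes were above 0. Counts above or below 0 in the lists that follow are to be read beside that share. Some genes of these lists, and of the marker lists, also had spots in the bands of scattering rows.

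The other receptors and ligands had a median of −0.25 over 6 genes, 5 of them below 0. The lowest was Dll4, the Delta ligand of endothelium, which read 0.0540 in wild type and 0.0388 in knockout skin (−0.47). This value rests on a single dim spot. Notch4, an endothelial receptor, was at −0.16. All 8 of 8 endothelial markers were below 0 too, from Cldn5 at −0.86 to Emcn at −0.14, with a median of −0.21, and their summed signal was 10.3 in wild type and 7.57 in knockout skin. In bulk tissue, fewer cells of a type and less RNA per cell cannot be told apart. The part of endothelium in the Dll4 and Notch4 values was not tested. Dlk1, a ligand-like protein of preadipocytes and developing muscle, read 27.1 and 20.6 (−0.40). Skeletal muscle markers were below 0 in 9 of 9 genes (median −0.97, summed signal 225 and 129) and adipocyte markers in 6 of 6 (median −0.71, 76.3 and 49.3), and their part in the Dlk1 value was not tested. The highest of the list was Dlk2 at 0.17.

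Ligand endocytosis, the pull that exposes the cutting site of the receptor, had a median of −0.13 over 7 genes. It ran from Neurl1a, a ubiquitin ligase that acts on ligands, at −0.49 to Mib2, a ligase of the Mindbomb type, at 0.16. The enzymes that trim and glycosylate receptors had a median of −0.09 over 6 genes. They ran from the Fringe glycosyltransferase Lfng at −0.27 to its relative Rfng at 0.10. The sheddases and gamma-secretase subunits had a median of −0.10 over 8 genes, from the subunit Ncstn (nicastrin) at −0.20 to Adam10, the protease that makes the first cut, at 0.23. The single Ncstn spot lay in a band of scattering rows.

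Inside the nucleus, the RBPJ complex and its corepressors had a median of 0.09 over 19 genes, 14 above 0 and 5 below. Rbpj itself read 0.355 in wild type and 0.386 in knockout skin (0.12). The lowest was the coactivator Maml2 at −0.29 and the highest the corepressor Tle4 at 0.48, both dim, with wild type signals of 0.0527 and 0.0414. Inhibitors and turnover factors had a median of 0.02 over 10 genes. Their lowest was Nrarp, a feedback inhibitor that is itself a direct Notch target, which read 0.959 and 0.893 (−0.10). Their highest was Dtx2, a Deltex ubiquitin ligase, at 0.45, read from a single spot that lay in a band of scattering rows.

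The other Hes and Hey genes, listed here with their relatives Bhlhe40 and Bhlhe41, did not share the Hes5 value. Of 6 measured, 5 were below 0 and the median was −0.20, from Bhlhe41, a related clock repressor, at −0.56 to Hes2 at 0.25. Bhlhe40 was at −0.26, and the lowest of the Hes and Hey genes themselves was Hes7 at −0.42. Hes6, an antagonist of Hes1, read 1.37 and 1.24 (−0.14). Bhlhe41 was very dim, at 0.0130 and 0.00880. Hes3 was well above background on the wild type array only and Helt on neither, so they have no value here.

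Genes that Notch is known to act on in keratinocytes had a median of 0.001 over 12 genes, 6 above 0 and 6 below. Ascl2, a transcription factor of epidermal differentiation, was the highest, with 0.439 in wild type and 0.647 in knockout skin (0.56, short of the 1.5-fold limit). Tslp, a cytokine released by skin that has lost Notch, was the lowest at −0.39 and was dim, at 0.0348 and 0.0265. Its single spot lay in a band of scattering rows. The spinous keratin Krt1 read 111.5 and 113.8 (0.03), and its partner Krt10 read 79.5 and 78.1 (−0.03). The targets outside the Hes and Hey families were thus within the between-probe SD, except for Ascl2, Tslp and the cell cycle inhibitor Cdkn1a at −0.32.

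**Figure D4:**
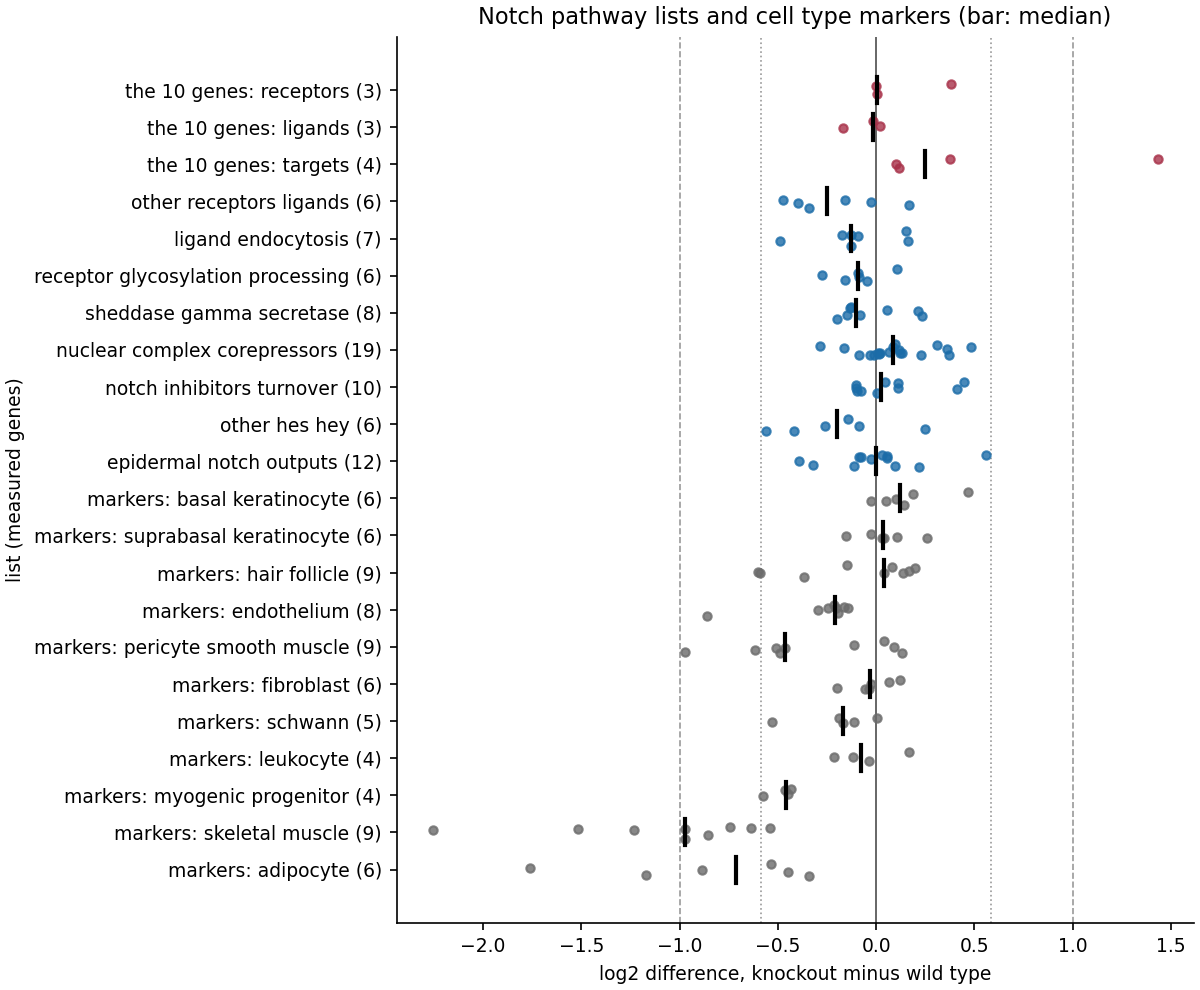
Log2 difference of each measured gene of the Notch lists (red for the 10 genes, blue for other pathway genes) and of cell type markers (grey), with the number of measured genes in brackets and the median as a black bar. Hes5 at 1.43 is the one Notch gene beyond 2-fold, while skeletal muscle and adipocyte markers have the lowest medians, −0.97 and −0.71.

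Markers of the cells that carry the pathway are given beside these values. Basal keratinocyte markers had a median of 0.12 over 6 genes, from Itgb4 at −0.02 to Dst at 0.47, with a summed signal of 93.0 in wild type and 99.2 in knockout skin. Suprabasal markers had a median of 0.03 over 6 genes, from Lor at −0.15 to Ivl at 0.26, with sums of 312 and 303. Hair follicle markers had a median of 0.04 over 9 genes, from Dsg4 at −0.60 to Lef1 at 0.20, with sums of 87.3 and 69.5. A sum mostly follows its brightest probes. Here the keratins Krt71 (52.9 and 41.0) and Krt25 (15.7 and 10.4) were both lower in the knockout, while 5 of the 9 genes were above 0. None of these 3 lists held a gene at least 1.5-fold higher, against 2.36% of all measured genes. The hair follicle list held 2 genes at least 1.5-fold lower, against 6.04% of all measured genes. The part of these cells in the Hes5 value was not tested.

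Pericyte and smooth muscle markers had a median of −0.46 over 9 genes, 6 of them below 0, from Cnn1 at −0.97 to Kcnj8 at 0.13, with sums of 19.3 and 14.7. The contractile smooth muscle genes Acta2, Tagln, Myh11 and Cnn1 ran from −0.97 to −0.49. Of the pericyte genes, Rgs5, Pdgfrb, Cspg4 and Kcnj8 ran from −0.11 to 0.13 and Abcc9 was at −0.46. Notch3 and Heyl, which both kinds of cell express, were at 0.004 and 0.37, and the part of these cells in their values was not tested. Among the other lists, the medians were −0.03 for fibroblasts (6 genes, Col1a1 at −0.20 to Pdgfra at 0.12, sums of 319 and 311), −0.17 for Schwann cells (5 genes, the highest Sox10 at 0.01, sums of 5.92 and 5.27) and −0.08 for leukocytes (4 genes, Cd3e at −0.21 to Ptprc at 0.17, sums of 1.32 and 1.27). Myogenic progenitor markers had a median of −0.46 over 4 genes, from Myog at −0.57 to Pax7 at −0.43, with sums of 1.01 and 0.702. Myf5 in that list and Cd207 among the leukocyte markers were not well above background on either array. Muscle markers ran from Pvalb at −2.26 to Myh3 at −0.54, and adipocyte markers from Cfd at −1.76 to Fabp4 at −0.34.

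The difference of Hes5 ran from 1.30 to 1.48 under the 8 alternative settings that gave it a value. Each of these settings reread the same single spot, so they cannot check that spot. The setting without the bands, which leaves the spot out, gave no Hes5 value. Heyl ran from 0.33 to 0.42 and Hes1 from 0.07 to 0.15, also under 8 settings. Under all 9 settings Jag1 stayed below 0, from −0.20 to −0.12, and Hey1, Dll1 and Notch3 stayed above 0, with highest values of 0.16, 0.07 and 0.05. Notch1 ran from 0.11 to 0.43. Jag2 and Notch2 crossed 0, from −0.02 to 0.03 and from −0.11 to 0.05.

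**Figure D5:**
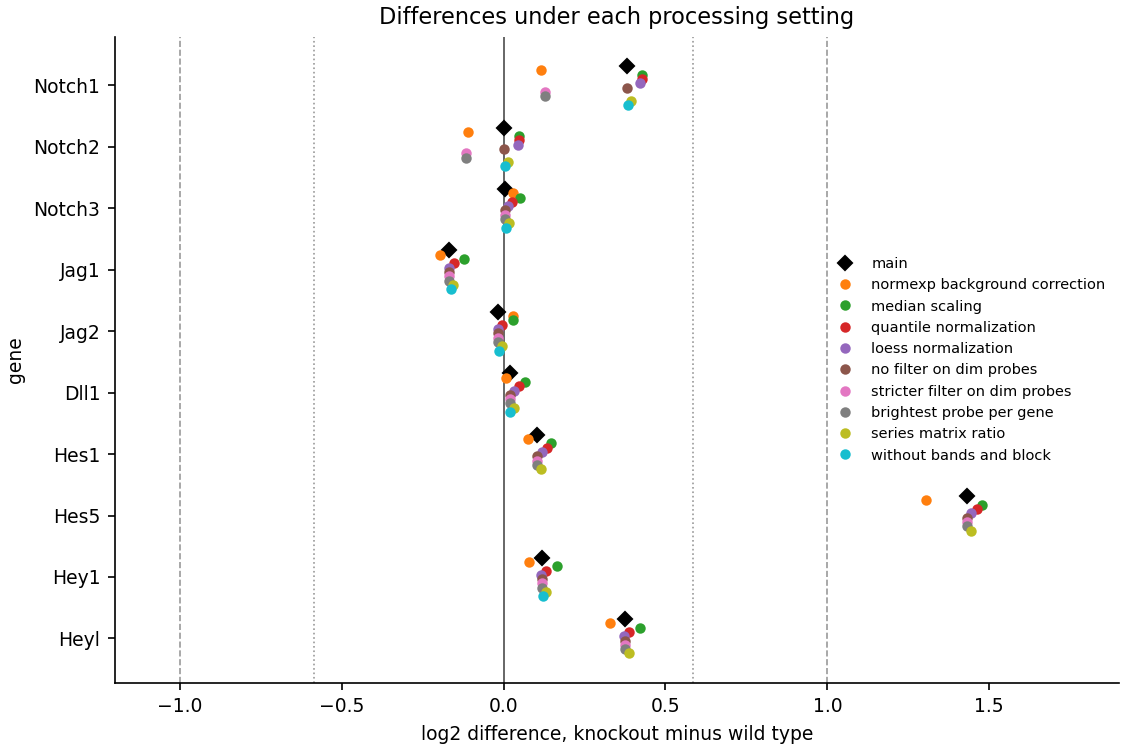
Log2 difference of each of the 10 genes under the main setting (black diamond) and each alternative setting (coloured points). Hes5 lies beyond the dashed 2-fold line wherever it has a value, between 1.30 and 1.48, but each of its points rereads the same single spot. The Notch1 points split into a group from 0.11 to 0.13 and a group from 0.38 to 0.43.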

How the data were processed

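Total RNA (200 ng per array) was labelled with Cy3 and hybridised to 1-colour Agilent arrays, per the labels' protocols. The authors' deposited scanner files hold intensities from Agilent Feature Extraction 11.5.1.1, with spatial and multiplicative detrending switched on, per the file headers. The deposited series matrix holds a ratio, which equalled the processed intensity divided by a constant per array (1906 wild type, 2080 knockout), linear and with genes not centred. Its column medians were 0.0855 and 0.0840. The step that made it is not named by any label or header used here.

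Control spots and 192 outlier spots were left out, spots of a probe were averaged on the log2 scale, and each array was scaled by its 75th percentile over 39417 probes. A gene's value is the mean over its unsaturated probes that were well above background on each array. RefSeq names (GRCm38.p6) were given to 28325 probes by accession, 2204 by symbol and 174 by synonym, and 8714 kept the file's name. The code was tested on simulated data. Python 3.11.15, R 4.3.3 and limma 3.58.1 were used. With 1 array a group, no test was run and the number of arrays limits the precision.

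The 10 genes, the lists and the alternatives were chosen with earlier results of these data known. The text names, of each pathway list, the highest and lowest measured gene and any at least 1.5-fold apart, and of each marker list the highest and lowest, except for the lowest Schwann cell marker, which is not reported here. Named outside this rule, after their values were seen, are Notch4, Dlk1, Rbpj, Hes6, Hes7, Bhlhe40, Krt1, Krt10, Krt25, Krt71 and Cdkn1a. So are the smooth muscle and pericyte genes other than Cnn1 and Kcnj8, and the genes near Hes5. With 2 arrays a gene has 1 difference, so likeness between genes was not measured.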

Additional observations from a re-analysis of the deposited data

How the results depend on the processing

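Across 9 alternative settings, 211 of 221 values moved by less than the between-probe SD (divided by the square root of the number of genes for a median, or within 1.5 times for a count), and 10 moved by more. No difference of at least 1.5-fold changed sign, but values near 0 did: those of Jag2 and Notch2, and the medians of the other pathway genes, of the epidermal outputs and of the inhibitors, each under at least 1 setting. With the bands of scattering rows and the shifted block left out, 7 of the 10 genes kept a value, and the members at least 1.5-fold higher and at least 2-fold higher both came to 0, because the Hes5 spot lies in a band. The median of the other pathway genes (−0.03) was 0.017 with median scaling, 0.016 with quantile normalization, 0.0043 with loess normalization and −0.061 with no filter on dim probes, while the median of all genes ran from −0.07 to 0.01. The Notch1 difference of 0.38 came to 0.11 after normexp correction and to 0.13 both with the stricter filter and with the brightest probe. The Sdr9c7 difference of −2.76 was −2.06 after normexp correction. At least 2-fold apart were 120 higher and 307 lower genes in the main setting, 34 and 105 after normexp correction, 814 and 978 with no filter, 60 and 189 with the stricter filter and 69 and 192 without bands and block. At 1.5-fold the main counts of 536 and 1373 became 172 and 624 after normexp correction, 1905 and 2617 with no filter and 326 and 915 with the stricter filter. Searching TGGGAA in place of GTGGGAA left the number of genes with a match in the promoter at 1 of 7. Of all promoters, 25.6% held TGGGAA. These letters lie inside GTGGGAA, so Hes5 had to match again, and the unchanged count is no check of its matches. No paired analysis was possible because each genotype has 1 array. For the dim Notch1 probe, signal over background limits the value, at 2.88 times the lowest well-above-background signal of the wild type array.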

Other observations

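The genes next to Hes5 on chromosome 4 did not share its value. In the order of the RefSeq table, the 3 measured genes before it were Mmel1 at −0.38, Prxl2b at −0.08 and Tnfrsf14 at −0.23, and the 3 after it were Pank4 at −0.07, Gm42363 at −0.24 and Plch2 at 0.44. Plch2, a phospholipase, was the only neighbour above 0, with a signal of 0.427 in wild type and 0.578 in knockout skin.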
